A study of Mus musculus with 6 samples.

Results

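Tumour necrosis factor (TNF), its receptors and the proteins that carry or limit its signal are described here in cultured mouse microglia. The 10 genes were Tnf, Tnfrsf1a, Tnfrsf1b, Tnfaip2, Tnfaip3, Traf1, Traf2, Tnfsf9, Cd40 and Birc3. They were chosen by symbol for their known role, with earlier results of these data known. All 10 were found among the 41079 genes listed and among the 14618 with enough counts to be tested. RNA was sequenced from 6 libraries, 3 from control and 3 from optimized cultures, to ask how culture conditions modelled on the brain change the microglial transcriptome. All 6 came from C57Bl/6N mice of 1 to 3 days, whose brain cells were grown in mixed flasks with serum on poly-L-ornithine and stimulated with L-929 conditioned medium, which is rich in M-CSF, before the microglia were shaken off. Brains of several mice were pooled in a flask, so a library does not stand for 1 animal. Control cells were then held in serum-free DMEM/F12. Optimized cells were held in the same medium with human TGF-β1, human IL-34 and CX3CL1 at 100 ng/mL each and, by the study's methods but not by the labels, with cholesterol, insulin-transferrin-selenium and a collagen IV coating. Effects of the single components therefore cannot be told apart. The study calls the 3 libraries of a condition biological replicates. The labels do not say that they came from separate cultures, and if they did not, the p-values measure only technical spread.

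TNF is made as a trimer on the cell surface and is cut free by a protease, and in the brain microglia are a main source of it. It acts through TNFR1, which is found on most cells and carries a death domain, and through TNFR2, which is found mostly on immune and endothelial cells. Adaptors of the TRAF family and the ubiquitin ligases they bring to the receptors switch on the transcription factor NF-kappaB, which in turn induces Tnf and several of the genes that restrain the pathway, among them Tnfaip3, Birc3 and Traf1.

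The libraries held between 20628148 and 27261839 counts, and the 10 most abundant genes took 14.3% to 17.2% of them in control and 19.0% to 24.1% in optimized libraries. Microglial markers summed to between 5879 and 5979 CPM (counts scaled to library size) in control and between 10323 and 12029 CPM in optimized libraries. Of the 7 of these markers that were listed, 5 were higher, Tmem119 among them, and Aif1 and Csf1r were lower. Markers of other cells summed to less. Those of neurons came to 2.05 to 3.41 CPM in control and 3.93 to 4.26 CPM in optimized libraries, with Nefl called higher (0.227 against 1.14 CPM). Those of T and B cells came to at most 0.284 CPM, and Cd3e had 0 counts in every library. Astrocyte markers came to 22.2 to 25.0 CPM in control and 10.8 to 12.4 CPM in optimized libraries. Aldh1l1 was the astrocyte marker called (16.5 against 4.64 CPM, with Gfap at 4.18 against 4.68 CPM). Oligodendrocyte markers came to 125 to 140 against 156 to 190 CPM, with Mbp called higher (94.2 against 119 CPM). Endothelial markers summed to 78.8 to 94.4 CPM in control and 271 to 349 CPM in optimized libraries, with Flt1 as the marker that passed the test and with Cldn5 at 0 to 2 counts. Fibroblast markers summed to 34.2 to 48.2 CPM in control libraries and to 47.7, 30.4 and 150 CPM in optimized libraries 1 to 3. The part of these markers in the results was not tested.

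Tnf and most of its receptors and regulators among the 10 genes were lower in the optimized cultures. Of the 10 genes, 9 were called lower and 0 higher by edgeR's quasi-likelihood test at a Benjamini-Hochberg adjusted p under 0.05, against 15.2% of all tested genes called lower and 14.7% called higher. The count of 0 higher was the same at an unadjusted p under 0.05, with DESeq2 and with limma. All 10 log2 fold changes were negative, with a median of -1.04 against 0.0079 over all tested genes, and 5 of the 9 called genes were lower by over 1 on the log2 scale. The libraries of the conditions did not overlap in the same 9 genes, against 22.5% of all tested genes with every optimized library under every control library. The exception throughout was Tnfsf9. Since this is bulk RNA, fewer cells that make a transcript and less of it per cell cannot be told apart. Since the members were chosen with results of these data known, their share carries no test of its own.

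**Figure D1:**
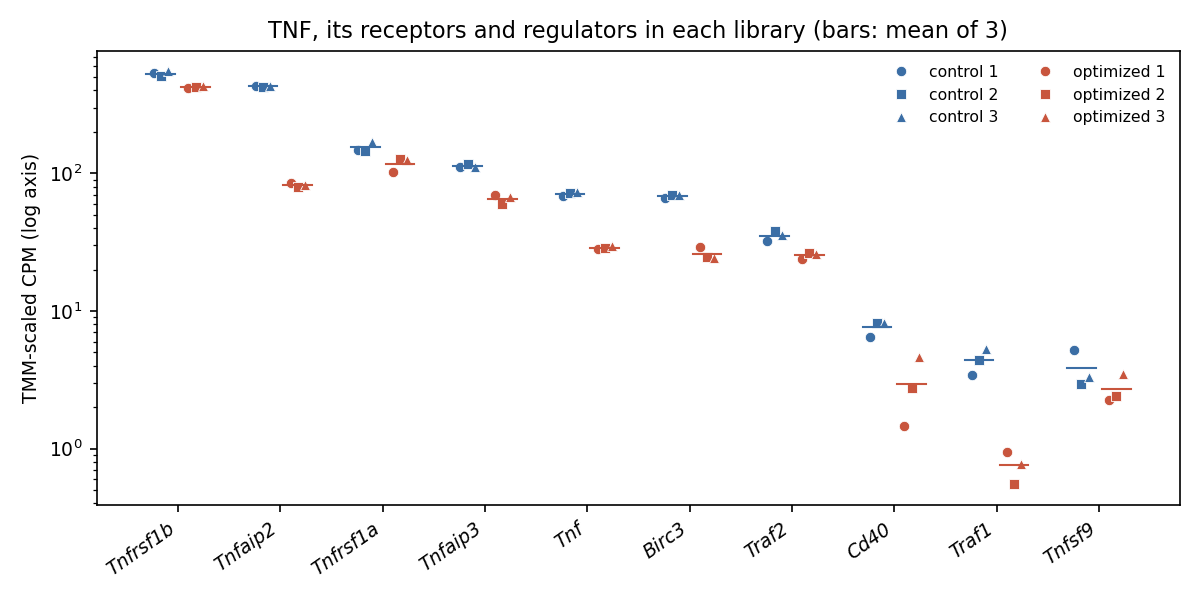
The 10 genes stand on the horizontal axis and TMM-scaled CPM on the vertical log axis. Points are the single libraries (circle, square and triangle for replicates 1 to 3, blue for control and red for optimized) and bars are means of 3. In 9 genes every optimized library lies under every control library, and in Tnfsf9 they overlap.

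Sequence at the starts of Tnf, the ligand itself, and of Tnfaip3, the inhibitor that its signal induces, is shown because NF-kappaB is known to act on both genes. For Tnf it is the 250 bases before the RefSeq start, at chr17:35420984-35421233 of GRCm39 on the minus strand. For Tnfaip3 it is the longest stretch of the same window that lies in no annotated exon of the gene, 109 bases at chr10:18891187-18891295 on the minus strand. Both read 5′ to 3′ on the strand of the gene, and capitals mark matches to an NF-kappaB consensus, to the AP-1 motif TGANTCA or to TATAAA.
Tnf: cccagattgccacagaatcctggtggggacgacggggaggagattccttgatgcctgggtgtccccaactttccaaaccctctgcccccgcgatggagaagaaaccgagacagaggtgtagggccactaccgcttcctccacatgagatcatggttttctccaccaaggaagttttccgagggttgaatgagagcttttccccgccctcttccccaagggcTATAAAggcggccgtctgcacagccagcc
Tnfaip3: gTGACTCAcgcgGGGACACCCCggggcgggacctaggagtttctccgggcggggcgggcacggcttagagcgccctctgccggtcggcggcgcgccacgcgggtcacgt
The Tnf bases hold TATAAA at positions -29 to -24, counted back from -1 just before the RefSeq start, and no NF-kappaB consensus match. The Tnfaip3 bases run from position -137 to -29 and hold TGACTCA at -136 to -130 and an NF-kappaB consensus match at -125 to -116. The rest of the Tnfaip3 window holds a second NF-kappaB match at -12 to -3, on the other strand, and TATAAA at -225 to -220. RefSeq and GENCODE place some starts differently, so 138 of the 250 bases of this Tnfaip3 window, 237 of those of Tnfaip2 and all 250 of those of Tnfrsf1a lie in GENCODE exons of the same gene, against 0 for Tnf. The printed Tnfaip3 bases lie before the RefSeq start but inside the span that GENCODE gives the gene, between exonic stretches.

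The search covered both strands of all windows of the RefSeq table, from 250 bases before to 50 bases after each start. It was made for the NF-kappaB consensus, TGANTCA, the PU.1 motif GAGGAAGT and, chosen after the windows had been seen, TATAAA. Of the 10 genes, 8 had a window and Tnfaip3 had 2, and Tnfsf9 and Cd40 had none in the table. An NF-kappaB match was found in 1 of the 8 genes, in 1 of the 2 Tnfaip3 windows, against 4.51% of all 32851 windows. TGANTCA was found in 1 gene against 7.81% of windows, GAGGAAGT in 0 genes against 3.2%, and TATAAA in 2 genes against 13.6%. These matches are letters in a window and show no binding, and bases further upstream were not searched.

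Tnf, on chromosome 17 from 35418357 to 35420983 of GRCm39 on the minus strand, encodes the ligand. It had 68.5, 71.7 and 72.6 CPM in control libraries 1 to 3 and 28.1, 28.8 and 29.8 CPM in optimized libraries 1 to 3, from 1567 to 1984 and 593 to 676 counts. The libraries of each condition lay close together and far from those of the other. In optimized libraries its mean was 40.7% of the control level, a log2 fold change of -1.30 (standard error 0.08, 95% interval -1.48 to -1.11, adjusted p = 2.1e-06 by edgeR's quasi-likelihood test). Of all tested genes, 3.36% had a lower log2 fold change.

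Tnfsf9, on chromosome 17 from 57412298 to 57414769 on the plus strand, encodes the ligand of the T cell co-stimulator CD137. It had 5.25, 2.94 and 3.29 CPM in control libraries 1 to 3 and 2.27, 2.43 and 3.48 CPM in optimized libraries 1 to 3, from 48 to 120 counts. Control library 1 was highest and optimized library 3 lay above the other two control libraries. Its log2 fold change of -0.49 (standard error 0.28, 95% interval -1.10 to 0.13) did not pass the edgeR test (adjusted p = 0.228), and without control replicate 1 it was -0.20 (adjusted p = 0.669). The interval holds both no change and a fall of the size seen in Tnfaip3, so no difference was shown in either direction. Tnfsf9 also shares 192 exonic bases with Gm11110 on the other strand, which had 5 to 14 counts, and whether the counting used strand is not given in the sources used here.

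Both TNF receptors were abundant and lower in optimized libraries, and their 95% intervals lay nearer to 0 than that of Tnf and did not overlap it. Tnfrsf1a, on chromosome 6 from 125325566 to 125339632 on the plus strand, encodes TNFR1. It had 148, 145 and 170 CPM in control libraries 1 to 3 and 102, 126 and 125 CPM in optimized libraries 1 to 3. Optimized library 1 was the lowest of all and control library 3 the highest. Optimized cells held 76.5% of control, or -0.39 on the log2 scale (standard error 0.11, 95% interval -0.63 to -0.14, adjusted p = 0.0223 by edgeR). It shares 19 exonic bases with Plekhg6 on the other strand, which had 18 to 56 counts against at least 2159 for Tnfrsf1a.

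Tnfrsf1b, on chromosome 4 from 144938938 to 144973477 on the minus strand, encodes TNFR2 and had the highest CPM of the 10 genes. It had 535, 506 and 551 CPM in control libraries 1 to 3 and 414, 423 and 430 CPM in optimized libraries 1 to 3. The gap between the conditions was wider than the range within either. Optimized libraries had 79.6% of control, or -0.33 on the log2 scale (standard error 0.08, 95% interval -0.51 to -0.14, adjusted p = 0.0135 by edgeR). The calls of both receptors were lost when some single libraries were left out. Without control replicate 1 the edgeR adjusted p was 0.0504 for Tnfrsf1a and 0.0547 for Tnfrsf1b, without control replicate 3 it was 0.0932 and 0.0630, and without optimized replicate 3 it was 0.0539 for Tnfrsf1b, with both log2 fold changes still negative.

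The balance of the receptors was compared within each library, on the deposited FPKM values, which are per length of transcript. The ratio of Tnfrsf1b to Tnfrsf1a was 1.58, 1.53 and 1.42 in control libraries 1 to 3 and 1.77, 1.47 and 1.50 in optimized libraries 1 to 3. The conditions overlapped. The mean log2 ratio differed by 0.06 (two-sided exact permutation p = 0.7, where 0.1 is the smallest p that 3 against 3 allows), and by -0.02 without optimized replicate 1, so no shift between the receptors was detected beyond the spread of the libraries.

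Cd40, on chromosome 2 from 164897544 to 164914868 on the plus strand, encodes a receptor of the TNF receptor superfamily through which T cells activate antigen-presenting cells. It had 6.47, 8.24 and 8.16 CPM in control libraries 1 to 3 and 1.47, 2.77 and 4.64 CPM in optimized libraries 1 to 3, from 148 to 223 and 31 to 96 counts. The conditions did not overlap, but the optimized libraries ranged over 3.16-fold, with replicate 3 the highest. Its optimized mean was 38.7% of control, or -1.37 on the log2 scale (standard error 0.32, 95% interval -2.09 to -0.65, adjusted p = 0.00933 by edgeR). Fibroblast markers were also highest in optimized replicate 3, at 150 CPM. They were lowest in optimized replicate 2, at 30.4 CPM, while Cd40 was lowest in optimized replicate 1. A link between them and Cd40 was not tested. Without optimized replicate 3 the log2 fold change of Cd40 was -1.84, and without optimized replicate 1 it was -1.05.

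Both adaptors were lower, with 95% intervals that did not overlap. Traf1, on chromosome 2 from 34831762 to 34851837 on the minus strand, encodes an adaptor that pairs with TRAF2 at TNFR2 and is itself induced by NF-kappaB. It had 3.41, 4.40 and 5.31 CPM in control libraries 1 to 3 and 0.947, 0.553 and 0.774 CPM in optimized libraries 1 to 3, from 78 to 145 and 13 to 20 counts. Every control library was far above every optimized library. In optimized libraries it was at 17.3% of control, and the log2 fold change of -2.53 was the lowest of the 10 (standard error 0.28, 95% interval -3.17 to -1.89, adjusted p = 9.8e-05 by edgeR). Of all tested genes, 0.814% had a lower one.

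Traf2, on chromosome 2 from 25406097 to 25436987 on the minus strand, encodes the adaptor that brings ubiquitin ligases to both TNF receptors. It had 32.0, 37.8 and 35.8 CPM in control libraries 1 to 3 and 23.8, 26.4 and 26.1 CPM in optimized libraries 1 to 3. Library 1 was lowest in either condition, and the conditions did not overlap. Optimized cultures had 72.2% of control, or -0.47 on the log2 scale (standard error 0.10, 95% interval -0.69 to -0.25, adjusted p = 0.00539 by edgeR).

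The adaptors were also compared within each library. The FPKM ratio of Traf1 to Traf2 was 0.132, 0.145 and 0.184 in control libraries 1 to 3 and 0.0496, 0.0261 and 0.0369 in optimized libraries 1 to 3. No library of one condition reached the range of the other. The mean log2 ratio differed by -2.07, which is 4.20-fold lower in optimized libraries, with a two-sided exact permutation p = 0.1, the smallest that 3 against 3 allows.

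Birc3, on chromosome 9 from 7845790 to 7873229 on the minus strand, encodes a ubiquitin ligase that TRAF2 brings to the receptor and that restrains cell death. It had 66.4, 69.5 and 69.8 CPM in control libraries 1 to 3 and 29.0, 24.6 and 24.5 CPM in optimized libraries 1 to 3. The control libraries stood together, and optimized library 1 was somewhat above the other two. Its mean in optimized libraries was 38.0% of control, or -1.40 on the log2 scale (standard error 0.10, 95% interval -1.61 to -1.18, adjusted p = 3.6e-06 by edgeR), close to those of Tnf and Cd40.

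Tnfaip3, on chromosome 10 from 18874201 to 18891405 on the minus strand, encodes a ubiquitin-editing enzyme that shuts off NF-kappaB signalling. It had 111, 116 and 112 CPM in control libraries 1 to 3 and 69.7, 59.9 and 67.3 CPM in optimized libraries 1 to 3. The conditions were well apart. The level left in optimized libraries was 58.2% of control, or -0.78 on the log2 scale (standard error 0.09, 95% interval -0.98 to -0.59, adjusted p = 9.0e-05 by edgeR).

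Tnfaip2, on chromosome 12 from 111408858 to 111421452 on the plus strand, encodes a protein induced by TNF that takes part in shaping membrane protrusions. It had 430, 425 and 430 CPM in control libraries 1 to 3 and 85.7, 79.4 and 83.0 CPM in optimized libraries 1 to 3. Replicates were nearly level in both conditions, with 428 ± 3.14 and 82.7 ± 3.14 CPM (SD, n = 3 each). On average the optimized libraries reached 19.3% of control, or -2.37 on the log2 scale (standard error 0.08, 95% interval -2.56 to -2.19, adjusted p = 5.5e-08 by edgeR), and 0.917% of all tested genes had a lower one.

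**Figure D2:**
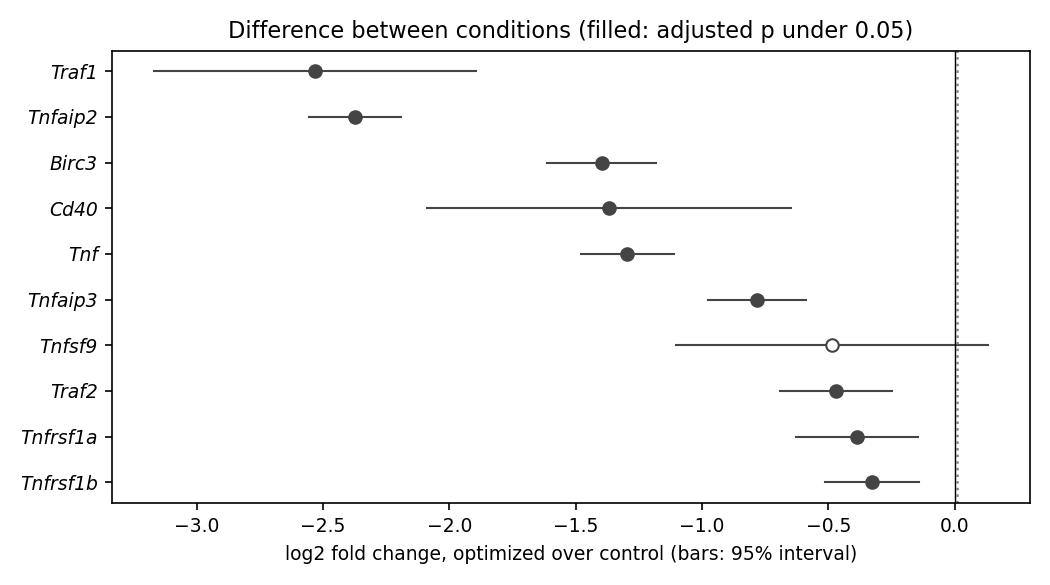
Points are the log2 fold changes of the 10 genes, optimized over control, on the horizontal axis, and bars their 95% confidence intervals from edgeR's quasi-likelihood fit, with filled points for an adjusted p under 0.05 and a dotted line at the median of all tested genes (0.0079). Traf1 (-2.53) and Tnfaip2 (-2.37) are the lowest, Tnfrsf1b (-0.33) is the nearest to 0 of the called genes, and the interval of Tnfsf9 crosses 0.

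Compared per length, on the mean FPKM of the 3 libraries, the TNFR2 transcript was the highest of the 10 in either condition. In control libraries the order was Tnfrsf1b with 109 ± 2.85 FPKM, Tnfaip2 with 102 ± 3.31 and Tnfrsf1a with 72.6 ± 3.69 (SD, n = 3 each). Tnf followed with 43.6 ± 1.30 FPKM, and Tnfaip3, Birc3 and Traf2 had 24.0, 15.3 and 7.03 FPKM. Cd40 with 4.12 FPKM and Tnfsf9 with 2.59 FPKM overlapped in their libraries and did not differ beyond their spread, and Traf1 was last with 1.08 FPKM. The other neighbours in this order did not overlap.

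In optimized libraries the receptors held the top of the order, with 79.1 ± 3.23 FPKM for Tnfrsf1b and 50.4 ± 4.70 FPKM for Tnfrsf1a (SD, n = 3 each). Tnfaip2, with 17.8 ± 1.41 FPKM, came next to Tnf, with 16.1 ± 0.791 FPKM. The ranges of this pair overlapped, but within each library Tnfaip2 was the higher, with 19.1 against 16.2, 16.3 against 15.3 and 18.1 against 16.9 FPKM in optimized libraries 1 to 3. Tnfaip3 had 12.7 FPKM. The ranges of Birc3 with 5.28 and Traf2 with 4.61 FPKM also overlapped, with Birc3 the higher in each library, as did those of Tnfsf9 with 1.68 and Cd40 with 1.45 FPKM, with neither the higher in every library. Traf1 was again last, with 0.172 FPKM, a level above that of 5.68% of tested genes, against 23.9% in control libraries.

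**Figure D3:**
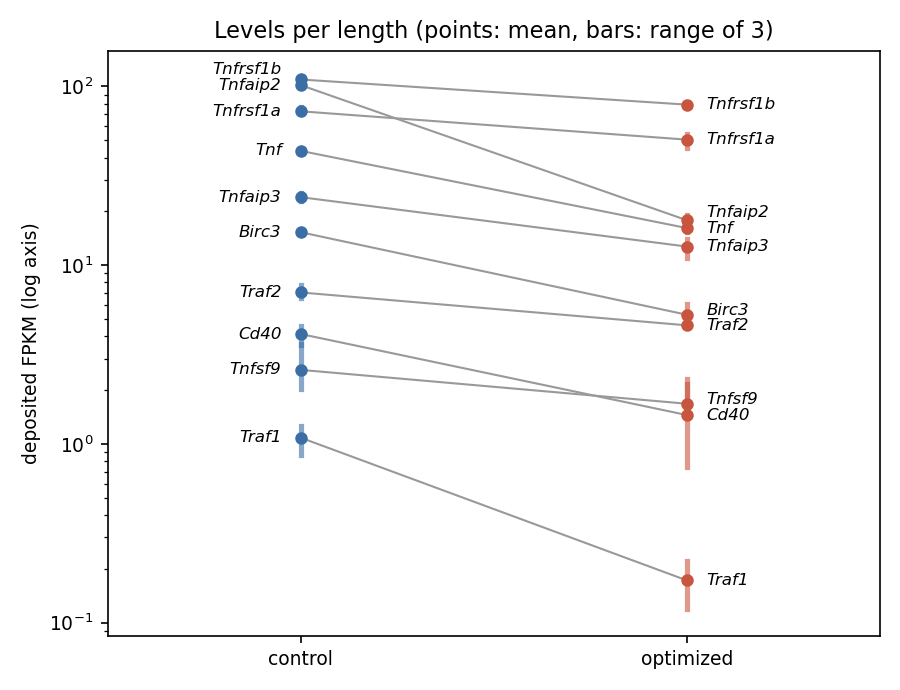
Points are the mean deposited FPKM (vertical log axis) of each of the 10 genes in control and optimized libraries, joined by a line, and bars the range of the 3 libraries. Tnfrsf1b is at the top and Traf1 at the bottom in both conditions, and the line of Tnfaip2 falls from beside that of Tnfrsf1b, at 102 FPKM, to just over that of Tnf, at 17.8 FPKM.

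Other genes of the pathway were read from lists set by role, with 90 of 110 genes tested. The lists too were set with earlier results of these data known, so their shares carry no test of their own. Over all of them 30 (33.3%) were lower and 12 (13.3%) higher, beside 15.2% and 14.7% of all tested genes, and the median log2 fold change was -0.15. Among these calls, 2 lower (Tnfsf15, Tnfsf18) and 1 higher (Tnfsf8) passed the filter on low counts only through the group where they are high. Lower calls were most frequent among NF-kappaB subunits and targets, of which 12 of 16 were lower and 0 higher, with a median of -0.77 (0 higher also at an unadjusted p under 0.05, with DESeq2 and with limma). Nfkb2, the subunit of the non-canonical branch, fell from 185 ± 5.85 CPM in the control group to 67.0 ± 1.81 CPM (SD, 3 libraries each), which is -1.47 on the log2 scale. Nfkbie, an inhibitor of NF-kappaB, and Sod2, the mitochondrial superoxide dismutase, had log2 fold changes of -2.27 and -1.57. Rela, Map3k8 and Nfkb1 were the least changed of those called, at -0.34, -0.33 and -0.31, and their calls were lost in 4, 7 and 2 of 15 alternative fits.

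In the core of the receptor complex the test called 2 of 14 genes lower (14.3%) and 1 higher (7.14%), shares no greater than those over all tested genes, and the list's median log2 fold change was -0.08. Rnf31, the catalytic subunit of the linear ubiquitin ligase, had a log2 fold change of -0.33, Ikbkg, the regulatory subunit of the IKK kinase, one of -0.31, and Tab1, a partner of the kinase TAK1, one of 0.31. Their calls were lost in 2, 3 and 11 of 15 alternative fits. Of 4 other TRAF genes, 1 was higher (25%), Traf6 at 0.40 (lost in 8 of 15), and 0 lower, also at an unadjusted p under 0.05, with DESeq2 and with limma. Of all tested genes 14.7% were higher and 15.2% lower.

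Among 11 genes that brake the pathway 2 were lower (18.2%) and 1 higher (9.09%), with a median of -0.11. These shares stand beside 15.2% and 14.7% of all tested genes. Tnip3, a partner of the Tnfaip3 protein, had 90.6 ± 2.45 CPM in the control group and 7.89 ± 0.388 CPM in the optimized group (SD, n = 3 each). Its log2 fold change of -3.52 (standard error 0.09, edgeR adjusted p = 2.6e-08) was lower than that of any of the 10 genes. Tank, a TRAF-binding inhibitor, had a log2 fold change of -0.48 and Rnf11, another partner of Tnfaip3, one of 0.50.

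The death arm had 3 of 9 genes lower (33.3%) and 0 higher by edgeR, beside 15.2% and 14.7% of all tested genes. Its median was -0.23 (1 higher at an unadjusted p under 0.05, and 0 with DESeq2 and with limma). The genes called lower included both steps specific to necroptosis. Mlkl, the pore-forming effector, fell from 10.9 ± 1.35 CPM in control libraries to 1.50 ± 0.228 CPM and Ripk3, the kinase that activates it, from 5.29 ± 0.469 to 2.63 ± 0.654 CPM (SD, 3 libraries each). Their log2 fold changes were -2.86 and -1.01. Bid, which links death receptors to mitochondria, had one of -0.33 (lost in 4 of 15 alternative fits).

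Genes for the production and release of TNF were lower in 4 of 9 cases (44.4%) and higher in 1 (11.1%), with a median of -0.17. Over all tested genes 15.2% were lower and 14.7% higher. Mapkapk2, a kinase that stabilises Tnf mRNA, fell from 514 ± 8.15 to 283 ± 17.5 CPM (SD, 3 libraries each), or by a log2 value of -0.86. Frmd8, which holds the TNF-releasing protease complex in place, had one of -0.37. Zfp36l2 and Zfp36, which mark mRNAs for decay, had -0.32 and -0.31, calls lost in 3 and 4 of 15 alternative fits. Rhbdf2, which carries the protease ADAM17 to the surface, was the one that rose, by 0.44 on the log2 scale, from a mean of 98.5 ± 3.35 CPM up to 134 ± 6.26 CPM (SD, 3 libraries each).

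**Figure D4:**
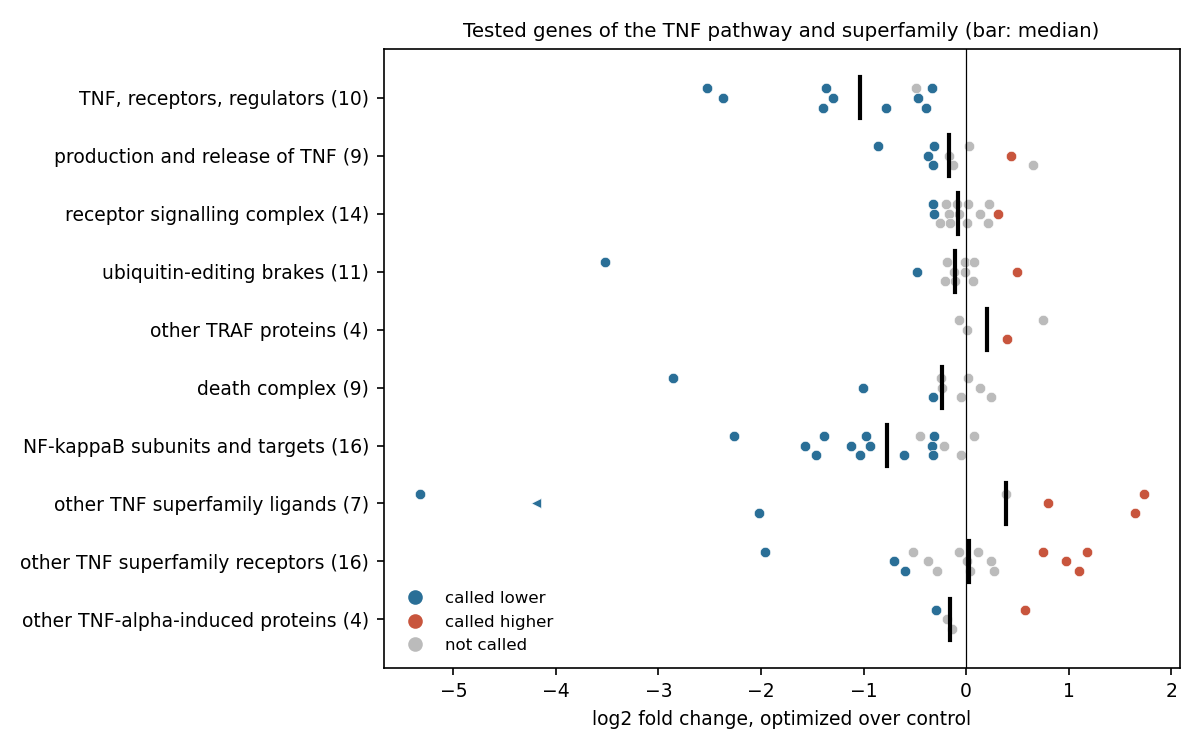
Points are the log2 fold changes, optimized over control, of the tested genes in each list, with the number tested in brackets, coloured by the edgeR call, and bars mark list medians. The triangle is Tnfsf18, drawn at the bound set by its 0 counts in optimized libraries. The 10 genes (median -1.04) and the NF-kappaB genes (-0.77) lie to the left, and the other ligands lie on both sides, 3 of them (Tnfsf8, Tnfsf15, Tnfsf18) tested only through their high group.

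Of the other ligands of the TNF superfamily, 7 of 16 had enough counts to be tested. Of these, 3 were called lower (42.9%) and 3 higher (42.9%), beside 15.2% and 14.7% of all tested genes. Of these calls, Tnfsf15 and Tnfsf18 (lower) and Tnfsf8 (higher) passed the filter on low counts only through the group where they are high. Their selection therefore favoured a difference, and without them 1 was lower and 2 higher. The 9 untested had at most 14 counts in a library. Tnfsf15, a ligand that co-stimulates T cells, had 60, 47 and 45 counts in control and 1, 1 and 1 counts in optimized libraries, which is 44.3-fold lower after scaling for library size (95% exact interval for counting error only, 14.9 to 217). Tnfsf10, the death ligand TRAIL, fell from 5.64 ± 1.76 CPM in control libraries to 1.40 ± 0.598 CPM (SD, 3 libraries each). Tnfsf18, which falls outside the naming rule and was chosen after its values were seen, had 19, 20 and 24 counts in control and 0 in every optimized library, at least 18.3-fold lower against a floor of 3 counts over the group. The 3 that rose were Tnfsf8 (log2 fold change 1.73), the CD30 ligand, and Tnfsf13b (1.65) and Tnfsf13 (0.80), the B cell survival factors BAFF and APRIL. The mean of Tnfsf13b was 2.69 ± 0.260 CPM in control and 8.46 ± 1.55 CPM in optimized libraries (SD, 3 libraries each).

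Of the other receptors of the superfamily, 3 of 16 tested were lower (18.8%) and 4 higher (25%), beside 15.2% and 14.7% of all tested genes, around a median of 0.03 on the log2 scale, while 9 more had at most 16 counts. Of the 16 tested, 2 passed the filter on low counts only through the group where they are high, and 0 of these were called. Tnfrsf14, a receptor of the ligand LIGHT, went from 81.6 ± 10.1 to 20.9 ± 5.70 CPM and Tnfrsf11a, the RANK receptor, from 117 ± 0.447 to 72.2 ± 4.85 CPM (SD, 3 libraries each), or -1.97 and -0.70 on the log2 scale. Fas, a death receptor, had a log2 fold change of -0.60 (lost in 3 of 15 alternative fits). Tnfrsf21, death receptor 6, rose by 1.10 on the log2 scale, from a mean of 62.2 ± 2.78 CPM up to 133 ± 5.28 CPM (SD, 3 libraries each). Tnfrsf23 and Tnfrsf26, decoy-type receptors of a mouse gene cluster whose near-identical members may share reads, had 1.18 and 0.98. Tnfrsf22 of the same cluster had 0.25 and was not called (adjusted p = 0.366 by edgeR). Of 4 tested genes that share the TNF-alpha-induced name, Tnfaip1 was lower (-0.29) and Tnfaip8l1 higher (0.57), calls lost in 4 and 7 of 15 alternative fits. That is 25% in each direction, beside 15.2% and 14.7% of all tested genes.

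Genes whose pattern over the 6 libraries was most like that of Tnf were sought among 9838 tested genes with a mean of at least 5 CPM. Symbols of predicted genes (Gm followed by digits, or ending in Rik) were left out. Likeness was measured by the smallest root mean square difference of centred log2 CPM. The 5 nearest were Sesn1, a stress-induced regulator, Nlrp1a, an inflammasome sensor, Gsr, glutathione reductase, Mtmr14, a lipid phosphatase, and Casp1, the inflammasome protease. Their differences from Tnf were between 0.051 and 0.056 on the log2 scale, and their own log2 fold changes were between -1.34 and -1.20. With 6 libraries in 2 separate groups such likeness is common, and 922 of the 9838 genes had a correlation with Tnf of over 0.95, as a description with no test.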

How the data were processed

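RNA from primary mouse microglia was sequenced in 3 control and 3 optimized libraries, grouped by their labels. The authors aligned reads to mm39 (GRCm39) by HISAT2, ran featureCounts for gene-level counts, and deposited those counts, not normalized, beside FPKM values of 41079 genes. Versions, annotation and strand setting are not given in the sources used here. Counts were kept by filterByExpr, scaled with TMM factors and compared with edgeR 4.0.16 (glmQLFit, glmQLFTest, no covariates) in R 4.3.3 over 14618 genes, and p-values were adjusted by Benjamini-Hochberg (threshold 0.05). The common dispersion was 0.0164, a coefficient of variation between replicates of 0.128. CPM are TMM-scaled, and standard errors are the size of the log2 fold change over the root of the F statistic. The deposited FPKM values served for levels and ratios between genes, with exact permutation tests. Of the 10 genes, 7 had at least 100 counts in every library, and Traf1, Tnfsf9 and Cd40 did not. Intervals of single genes' counts cover counting error only.

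The 10 genes, the lists and the markers were chosen with earlier results of these data known. Named were the 10 genes, the 3 lowest and 3 highest called genes of each list with a mean of at least 1 CPM, the 5 genes nearest to Tnf, and, outside this rule, Tnfsf18 and Tnfrsf22. Of the markers, Fcrls and Chil1 were not found by these symbols. Gene coordinates are those of GENCODE M39, in which 35087 symbols were found. RefSeq promoter windows from a GRCm38.p6 table were matched exactly to GRCm39.

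Alternatives were scaling by library size alone or by relative log expression, a DESeq2 1.42.0 fit, filters of none or of 10 counts per library, a replicate block, leaving out each library, and limma 3.58.1 on log2 FPKM with a pseudocount of 1 or 0.1, or keeping genes with mean FPKM from 1 upward. A fold taken on log2(FPKM + pseudocount) understates the change of low genes. The main edgeR fit, the DESeq2 fit and limma with a pseudocount of 1 were first tested on simulated data, and the other alternatives were not.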

Additional observations from a re-analysis of the deposited data

How the results depend on the processing

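All 10 genes kept a negative log2 fold change in every alternative fit that tested them, and 144 of 149 single-gene values kept their side of the threshold. The 5 that did not were those of Tnfrsf1a (2) and Tnfrsf1b (3) with a library left out, which left 7 to 9 of the 10 genes called lower. With limma on log2(FPKM + 1) and a mean FPKM of at least 1, Traf1 was not tested and 8 of 9 genes were lower, and the count of all genes called higher was 1176 against 2142, with 11572 genes tested in place of 14618. The log2 fold change of Traf1 was -0.83 with limma on log2(FPKM + 1), against -2.53 with edgeR. Genes called higher were 49.1% of all calls with TMM factors, 32.3% with library size alone and 28.4% to 31.3% in the 3 limma fits. Library size alone placed the median of all genes at -0.12 and that of the 10 genes at -1.17. The ratio of Tnfrsf1b to Tnfrsf1a differed by a log2 value of -0.024 without optimized replicate 1, in place of 0.06, and by -0.024 to 0.11 over all libraries left out. That of Traf1 to Traf2 lay between -2.30 and -1.83. Of the single values of named pathway genes, 443 kept their call and 62 lost it, with none reversed. With the replicate number as a block, 2523 genes were lower and 2401 higher, and 9 of the 10 genes were lower. Deviations of same-numbered libraries correlated at 0.27, -0.01 and 0.18 for replicates 1 to 3. Those of unlike-numbered libraries lay between -0.29 (control 3 with optimized 1) and 0.19 (control 3 with optimized 2). These values do not settle whether the numbers pair the cultures, and the main fit took the libraries as unpaired. Tnfsf9, Cd40 and Traf1 had under 100 counts in some libraries, and the calls of Cd40 and Traf1 held in every alternative that tested them.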
